A study of Homo sapiens with 26 samples.

Results

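The 42 genes described here are known or reported to be imprinted in humans, some of them only in certain tissues or transcripts, and all 42 were found by Ensembl gene ID among the 57773 genes of the table. They fall into 6 members at 11p15, 5 at 14q32, 7 at 15q11, 8 on chromosome 7, 5 on 20q and 11 at other places. Their expression was followed in TF-1 cells, an erythroleukemia line of human origin whose growth depends on cytokines such as GM-CSF. The cells were exposed to 5-azacytidine (Aza), a cytidine analogue that traps DNA methyltransferases, or to its vehicle DMSO.

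An imprinted gene is read mainly from the copy inherited from one parent. At most imprinted loci a stretch of DNA keeps CpG methylation on one parental copy only, and DNMT1 copies that mark at each cell division. TET enzymes, among them TET2, oxidise methylated cytosine. Counts per gene cannot tell the parental copies apart, so the values below are the summed output of both copies.

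The KO clones A12 and F4 are TET2 -/- and the WT clones C4 and A7 are TET2 +/+, and each line is 1 clone of TF-1. Aza was given at 200 nM once a day for 3 days, and cells were collected before treatment and at 72 and 264 h after the first dose. In batch 1, every clone was sequenced before treatment, in Aza at both times and in DMSO at both times, which makes 20 libraries. Batch 2 holds 6 libraries of A12 and F4: a pair labelled both as pre-treatment and as DMSO, which formed a group of its own, and DMSO at 72 and 264 h. The F4 DMSO library of batch 1 at 72 h is marked by the submitters as failing quality control and was left out, so that F4 in DMSO at 72 h rests on batch 2. Groups therefore hold 2 libraries, except for 3 in KO DMSO at 72 h and 4 in KO DMSO at 264 h. Clones of 1 line are not independent donors, and p-values measure the spread between these libraries.

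Total counts ran from 24992192 to 40187322 in the 25 libraries kept, and 3 counts amounted to 0.0746 to 0.120 CPM, the usual scaling of a count by its library total. The CPM values of genes below use totals normalised by TMM in edgeR. Of 13 markers of TF-1 cells and their erythroid, stem cell and receptor genes, 11 were above 1 CPM in every library; CSF2RA was listed at 0. Of 10 markers of other cell types, KRT18 and AFP were above 1 CPM in every library, and the B cell gene MS4A1 was at 0 in every library. TET2 RNA was present in KO libraries (24.9 to 46.4 CPM) as in WT libraries (22.5 to 29.96 CPM), so this count does not check the knockout. The 2 WT libraries taken before treatment go against their clone labels. Of 324 other genes that differed between C4 and A7 after treatment with a log2 difference of at least 1, 300 (92.6%) had the opposite sign before treatment. The Aza results of the imprinted genes, whose fit includes these 2 libraries, are given with and without them.

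RefSeq promoter windows (build GRCh38.p14, 250 bases before to 50 after a transcript start) were held for 27 of the 42 genes. The windows of 6 genes that carry the results below are printed 5′ to 3′ on the gene's strand, with every CpG, the site that DNA methyltransferases act on, in capitals. Where a gene has several windows, the one with the most CpGs is shown.
MEST, chr7:130491835-130492134, + strand: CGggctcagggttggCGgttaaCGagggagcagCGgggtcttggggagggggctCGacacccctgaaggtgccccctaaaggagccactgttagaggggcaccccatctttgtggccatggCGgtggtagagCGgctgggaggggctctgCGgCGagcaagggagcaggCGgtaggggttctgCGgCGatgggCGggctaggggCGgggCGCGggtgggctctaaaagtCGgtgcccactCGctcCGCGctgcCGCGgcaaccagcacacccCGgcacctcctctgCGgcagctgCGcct
COPG2, chr7:130668699-130668998, - strand: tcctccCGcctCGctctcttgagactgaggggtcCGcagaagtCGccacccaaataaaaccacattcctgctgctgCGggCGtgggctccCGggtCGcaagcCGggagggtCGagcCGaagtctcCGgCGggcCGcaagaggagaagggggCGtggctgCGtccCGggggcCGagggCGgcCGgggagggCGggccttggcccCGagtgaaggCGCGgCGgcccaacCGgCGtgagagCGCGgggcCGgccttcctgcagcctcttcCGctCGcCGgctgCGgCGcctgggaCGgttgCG
GRB10, chr7:50792825-50793124, - strand: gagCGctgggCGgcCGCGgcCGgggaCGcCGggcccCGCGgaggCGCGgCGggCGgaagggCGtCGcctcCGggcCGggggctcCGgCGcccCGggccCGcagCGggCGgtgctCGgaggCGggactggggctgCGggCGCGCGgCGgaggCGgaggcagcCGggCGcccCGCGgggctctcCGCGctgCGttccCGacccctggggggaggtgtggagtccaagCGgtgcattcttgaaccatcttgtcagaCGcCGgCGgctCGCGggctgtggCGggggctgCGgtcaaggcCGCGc
GNAS, chr20:58888930-58889229, + strand: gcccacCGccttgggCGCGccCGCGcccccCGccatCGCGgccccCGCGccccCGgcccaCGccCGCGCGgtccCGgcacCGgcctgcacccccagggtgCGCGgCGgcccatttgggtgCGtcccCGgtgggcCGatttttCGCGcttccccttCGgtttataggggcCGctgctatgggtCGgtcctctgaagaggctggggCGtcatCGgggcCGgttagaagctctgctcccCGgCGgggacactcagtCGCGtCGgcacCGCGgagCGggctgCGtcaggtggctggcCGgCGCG
MKRN3, chr15:23565424-23565723, + strand: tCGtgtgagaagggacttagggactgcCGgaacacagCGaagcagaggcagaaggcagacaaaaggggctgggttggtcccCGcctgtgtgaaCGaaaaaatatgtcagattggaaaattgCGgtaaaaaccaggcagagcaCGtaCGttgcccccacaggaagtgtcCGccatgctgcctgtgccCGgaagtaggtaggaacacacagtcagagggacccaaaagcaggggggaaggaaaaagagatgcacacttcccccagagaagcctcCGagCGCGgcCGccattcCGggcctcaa
DIRAS3, chr1:68050578-68050877, - strand: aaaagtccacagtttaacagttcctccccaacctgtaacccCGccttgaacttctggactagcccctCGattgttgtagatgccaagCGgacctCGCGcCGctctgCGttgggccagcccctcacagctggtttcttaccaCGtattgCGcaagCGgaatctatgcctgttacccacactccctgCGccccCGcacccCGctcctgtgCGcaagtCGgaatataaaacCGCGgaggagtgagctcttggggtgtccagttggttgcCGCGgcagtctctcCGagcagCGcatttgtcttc

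These windows hold 25 CpGs for MEST, 37 for COPG2, 49 for GRB10, 43 for GNAS, 15 for MKRN3 and 21 for DIRAS3, where the median of all 35116 windows is 14. For MEST, GRB10 and GNAS the window shown is the richest of several, so that median is no like comparison. The other windows of GRB10 go down to 3 CpGs and those of GNAS to 10. Over all windows of the imprinted genes 48.3% hold at least 20 CpGs, as do 41.2% of the windows of all genes. The 6 letters TGCCGC, which the imprint-keeping zinc finger protein ZFP57 is known to bind when methylated, were searched on both strands. They occur 3 times in the MEST window and 2 times in the DIRAS3 window, and not in the other 4. Over all windows of the 27 imprinted genes with one, 22 of 58 (37.9%) hold it, as do 16.7% of the windows of all genes. SNRPN and SNURF share 1 window, and windows of 1 gene can overlap. The letters are a description of the windows, and no binding or methylation was measured here.

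The genes ranged from abundant to unread. Mean CPM over the 25 libraries was above 100 for 6 members, from 10 to 100 for 5, from 1 to 10 for 10 and below 1 for 21. Per kb of exon, a scale that takes gene length into account, MEST led at 55.8 CPM per kb. The length joins all annotated exons of a gene, 4.62 kb for MEST and 13.3 kb for GNAS, so this order depends on the annotation. Without division by length the mean was 362 CPM for GNAS and 258 CPM for MEST. MEST encodes a hydrolase-like protein of the endoplasmic reticulum and is read from the paternal copy. GNAS, which encodes the stimulatory G protein alpha subunit as well as other imprinted transcripts, followed at 27.2 CPM per kb, and the zinc finger gene PLAGL1 at 23.8. UBE3A, a ubiquitin ligase that is imprinted in neurons, led 15q11 at 17.9 CPM per kb. MEG3, a maternally read long noncoding RNA, led 14q32 at 15.8, and PHLDA2, a maternally read gene that restrains placental growth, led 11p15 at 8.70. In this order every MEST library (lowest 43.3 CPM per kb) lay above every GNAS library (highest 32.75), and every PLAGL1 library (lowest 20.9) lay just above every UBE3A library (highest 20.85). Other neighbours overlapped: MEG3 ranged from 10.3 to 21.3 CPM per kb and GRB10, next in order at a mean of 14.7, from 11.3 to 17.2.

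Over the libraries of each genotype the leaders of the loci ran as follows, as lowest, median and highest CPM. PLAGL1 had 129, 146 and 164 CPM in the 15 KO libraries, against 138, 144 and 173 CPM in the 10 WT libraries. UBE3A had 78.5, 99.8 and 110 CPM in KO, against 106, 116 and 121 CPM in WT; the 6 KO libraries of batch 2, which holds no WT library, were all at or below 90.0 CPM. MEG3 had 163, 253 and 335 CPM in KO, against 185, 235 and 313 CPM in WT. PHLDA2 had 5.10, 9.06 and 17.2 CPM in KO, against 4.10, 5.82 and 8.40 CPM in WT. The genotypes overlapped in each of these 4 genes.

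**Figure D1:**
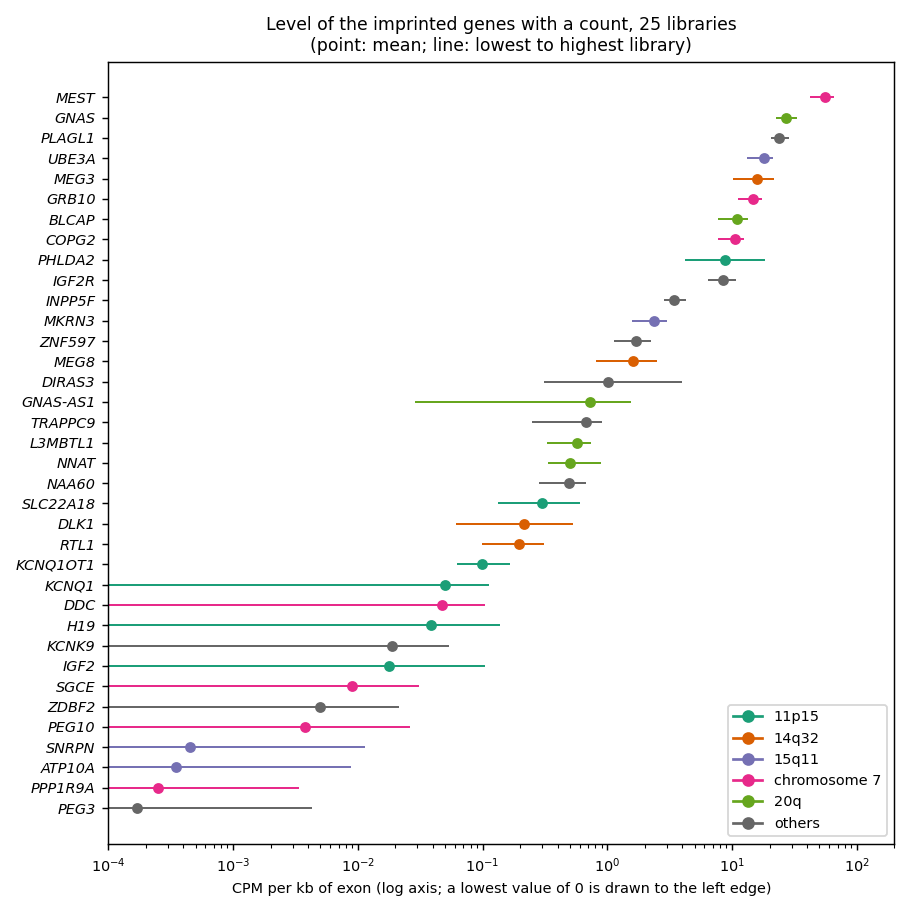
CPM per kb of exon (log axis) for the 36 imprinted genes with at least 1 count in the 25 libraries, with the mean as a point and the lowest to highest library as a line, coloured by locus. MEST stood highest at a mean of 55.8, and GNAS-AS1 and DIRAS3 had the widest lines among genes above 0.5 CPM per kb.

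The other genes tested stood between these and the floor. At 20q BLCAP had a mean of 42.7 CPM, and NNAT, the neuronatin gene that lies in an intron of BLCAP, had 0.652. L3MBTL1, a reader of methylated histones, had 6.08 CPM and GNAS-AS1, the antisense RNA of GNAS, 1.72. At 14q32 the noncoding RNA MEG8 had 4.79 CPM, and the paternally read genes DLK1, a Notch-related membrane ligand, and RTL1, a retrotransposon-derived gene, had 0.492 and 0.828. At 11p15 the noncoding RNA KCNQ1OT1 had 9.03 CPM, the transporter gene SLC22A18 1.61, the potassium channel gene KCNQ1 0.200 and the growth factor gene IGF2 0.125. Among the others were IGF2R, the receptor that clears IGF2, at 84.8 CPM, the phosphoinositide phosphatase gene INPP5F at 21.0, the zinc finger gene ZNF597 at 3.13, the acetyltransferase gene NAA60 at 2.79 and the small GTPase gene DIRAS3 at 1.98.

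For 16 members the counts were too low to test. No count at all was listed for DIO3, ZIM2, SNURF, NDN, MAGEL2 and TFPI2, which allows up to 0.0746 to 0.120 CPM by counting error. No library had more than 7 counts for 14 of the 16, H19 reached 11 and DDC reached 9. In sum the 16 members had 98 counts in the 8 Aza libraries and 142 counts in the 11 DMSO libraries of 72 and 264 h. The DMSO sums take in batch 2, which holds no Aza library. PEG10, a paternally read retrotransposon-derived gene, had 1 count in the 8 Aza libraries and 13 in those 11 DMSO libraries. In batch 2 it had 3 counts in F4 and 0 in A12 with DMSO at 72 h, and 5 and 4 at 264 h. In batch 1 the A12 DMSO library of 72 h had 1 count of PEG10 and the other DMSO libraries 0. H19, a maternally read noncoding RNA, had 28 counts with Aza and 24 with DMSO. DDC had 25 and 56 counts, KCNK9 18 and 29, ZDBF2 16 and 15 and SGCE 7 and 5. PEG3, PPP1R9A and ATP10A had at most 2 counts in any library.

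A listed 0 does not always speak of the RNA. The authors' counting took reads over exons of GENCODE release 19 without strand, and reads over exons of more than 1 gene were not assigned. Of the exon bases of SNURF, 78.6% overlap another gene, as do 42.1% of those of SNRPN; the 2 genes overlap each other. For MAGEL2 the share was 91.9%, for NAA60 51.4%, for GNAS-AS1 44.7%, for ZIM2 37.4%, for COPG2 32.8% and for IGF2 27.6%. The single count of SNRPN in all 25 libraries can thus not be read as its level. NDN, DIO3 and TFPI2 were listed at 0 with 0%, 0% and 4.62% of their exon bases overlapped. GNAS-AS1 and GNAS overlap on opposite strands, so reads over the shared bases count for neither.

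At 72 h after Aza, TRAPPC9, MEST, COPG2 and GRB10 were lower and GNAS was higher in both genotypes, and MKRN3 was lower in KO. In KO, 6 of the 26 members tested were called at a Benjamini-Hochberg adjusted p under 0.05 in edgeR's quasi-likelihood test, 1 higher and 5 lower. This is 23.1% of the members, against 20.1% of all 18391 genes (11.6% higher and 8.47% lower). In WT, 5 of 26 (19.2%) were called, 1 higher and 4 lower, against 18.3% of all genes (9.26% higher and 9.04% lower). Both shares are near the background. The median log2 fold change of the tested members was -0.23 in KO and -0.08 in WT, where that of all genes was 0.01 and 0.00. In the 3 clones with Aza and DMSO libraries of the same batch at 72 h (A12, C4 and A7), 12 members were lower in every clone and 5 were higher in every clone. The same count over all genes was not made, so these numbers cannot be set against a background. They take in log2 differences near 0, such as MKRN3 at -0.03 in C4 and A7 and MEG3 at 0.003 in A12. They also take in IGF2, with 3 counts with Aza and 0 with DMSO in each of A12 and A7.

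TRAPPC9, a subunit of the TRAPP vesicle trafficking complex, had the largest change of the called members. It stood at 10.4 CPM in A12 and 12.5 CPM in F4 with Aza at 72 h, against 23.0 and 29.4 CPM in A12 and 30.2 CPM in F4 with DMSO. In WT it stood at 9.95 CPM in C4 and 8.94 CPM in A7 with Aza, against 24.2 CPM in C4 and 23.1 CPM in A7 with DMSO. All 4 Aza libraries of 72 h lay below all 21 others. The log2 fold change was -1.16 (SE 0.10, edgeR adjusted p = 1.12e-08) in KO and -1.33 (SE 0.10, edgeR adjusted p = 7.24e-10) in WT. TRAPPC9 (hg19 chr8:140742586-141468678) spans 726 kb, the longest of the 42. Among other genes spanning 500 kb or more, 5 of 176 were called higher and 57 lower in KO at 72 h, with a median log2 change of -0.42, and 4 were higher and 61 lower in WT, with a median of -0.38. For genes under 100 kb the medians were 0.04 and 0.03. Genes of 100 to 300 kb, the range that holds COPG2 and GRB10 among others, had medians of -0.16 in KO and -0.16 in WT. Of 2235 such genes, 124 were called higher and 603 lower in KO, and 92 higher and 635 lower in WT. The part of gene span in the changes of TRAPPC9, COPG2 and GRB10 was not tested. The potassium channel gene KCNK9, its imprinted neighbour, had at most 6 counts in any library.

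MEST and COPG2 lie tail to tail on 7q32 (hg19 chr7:130126012-130146133 and chr7:130146089-130353598), and their exons overlap in part. MEST stood at 205 CPM in A12 and 218 CPM in F4 with Aza at 72 h, against 256 and 254 CPM in A12 and 251 CPM in F4 with DMSO. In WT it stood at 200.0 CPM in C4 and 212 CPM in A7 with Aza, against 260.5 CPM in C4 and 285 CPM in A7 with DMSO. The 4 Aza libraries of 72 h lay below all 21 others here too. The log2 fold change of MEST was -0.29 (SE 0.06, edgeR adjusted p = 0.00107) in KO and -0.40 (SE 0.06, edgeR adjusted p = 1.43e-05) in WT. COPG2, the gene of a coat subunit of Golgi vesicles, had 18.8 CPM in A12 and 17.9 CPM in F4 with Aza, against 22.6 and 20.6 CPM in A12 and 23.9 CPM in F4 with DMSO. The WT clones had 16.7 CPM in C4 and 18.2 CPM in A7 with Aza, against 22.3 CPM in C4 and 23.5 CPM in A7 with DMSO. Its log2 fold change was -0.30 (SE 0.10, edgeR adjusted p = 0.0339) in KO and -0.39 (SE 0.10, edgeR adjusted p = 0.00453) in WT. The 71 other genes tested within 5 Mb had a median log2 change of -0.10 in each genotype. The KO call of COPG2 was lost without the F4 Aza library (log2 -0.22, adjusted p = 0.245), without the batch 1 A12 DMSO library (-0.25, adjusted p = 0.221) or without the F4 DMSO library (-0.28, adjusted p = 0.0669), and in 6 of 11 alternatives in all. Its WT call was lost without the C4 Aza library (-0.37, adjusted p = 0.0670).

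GRB10, the gene of an adaptor that dampens insulin receptor signalling, lies on 7p12 (hg19 chr7:50657760-50861159). It stood at 113 CPM in A12 and 122 CPM in F4 with Aza at 72 h, against 142 and 136 CPM in A12 and 144 CPM in F4 with DMSO. The WT values were 121 CPM in C4 and 125 CPM in A7 with Aza, against 144 CPM in C4 and 152 CPM in A7 with DMSO. The groups did not overlap. The log2 fold change was -0.30 (SE 0.06, edgeR adjusted p = 0.000833) in KO and -0.27 (SE 0.06, edgeR adjusted p = 0.00166) in WT. The WT call was lost without the A7 DMSO library (log2 -0.24, adjusted p = 0.0531). Its neighbour DDC, dopa decarboxylase, was too low to test.

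GNAS (hg19 chr20:57414773-57486247) was the 1 member called higher. It stood at 416 CPM in A12 and 399 CPM in F4 with Aza at 72 h, against 344 and 392 CPM in A12 and 358 CPM in F4 with DMSO. WT cells had 364 CPM in C4 and 345 CPM in A7 with Aza, against 303 CPM in C4 and 308 CPM in A7 with DMSO. Each Aza library lay above the 72 h DMSO libraries of its own genotype. Other KO libraries of batch 2 without Aza reached as high: A12 of the mixed label had 406 CPM. With DMSO at 264 h in batch 2, F4 had 419 CPM and A12 436 CPM. Within batch 1 the Aza libraries of 72 h lay above every other library kept of their genotype. The log2 fold change was 0.32 (SE 0.06, edgeR adjusted p = 0.000174) in KO and 0.21 (SE 0.05, edgeR adjusted p = 0.00505) in WT. The WT call was lost without either C4 library, with log2 0.18 (adjusted p = 0.0871) without the Aza one and 0.17 (adjusted p = 0.113) without the DMSO one. The count joins all GNAS transcripts, so a change of 1 promoter cannot be told apart from a change of all.

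MKRN3, a paternally read ubiquitin ligase gene at 15q11 known for timing puberty, was called in KO alone. It stood at 8.33 CPM in A12 and 6.35 CPM in F4 with Aza at 72 h, against 10.6 and 11.7 CPM in A12 and 8.49 CPM in F4 with DMSO. The WT values were 8.92 CPM in C4 and 8.34 CPM in A7 with Aza, against 9.09 CPM in C4 and 8.53 CPM in A7 with DMSO. The log2 fold change was -0.44 (SE 0.16, edgeR adjusted p = 0.0467) in KO and -0.03 (SE 0.15, edgeR adjusted p = 0.929) in WT. The difference between genotypes was -0.41 with a 95% interval of -0.86 to 0.03 (edgeR adjusted p = 1), so it was not shown. The KO call was lost in 8 of 11 alternatives, where log2 ran from -0.63 to -0.16 over all 11 and the adjusted p reached 0.670 with the failed library included. Among these it was lost without the F4 Aza library (log2 -0.31, adjusted p = 0.295), without the batch 1 A12 DMSO library (-0.41, adjusted p = 0.208) and without the batch 2 A12 DMSO library (-0.40, adjusted p = 0.0822).

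**Figure D2:**
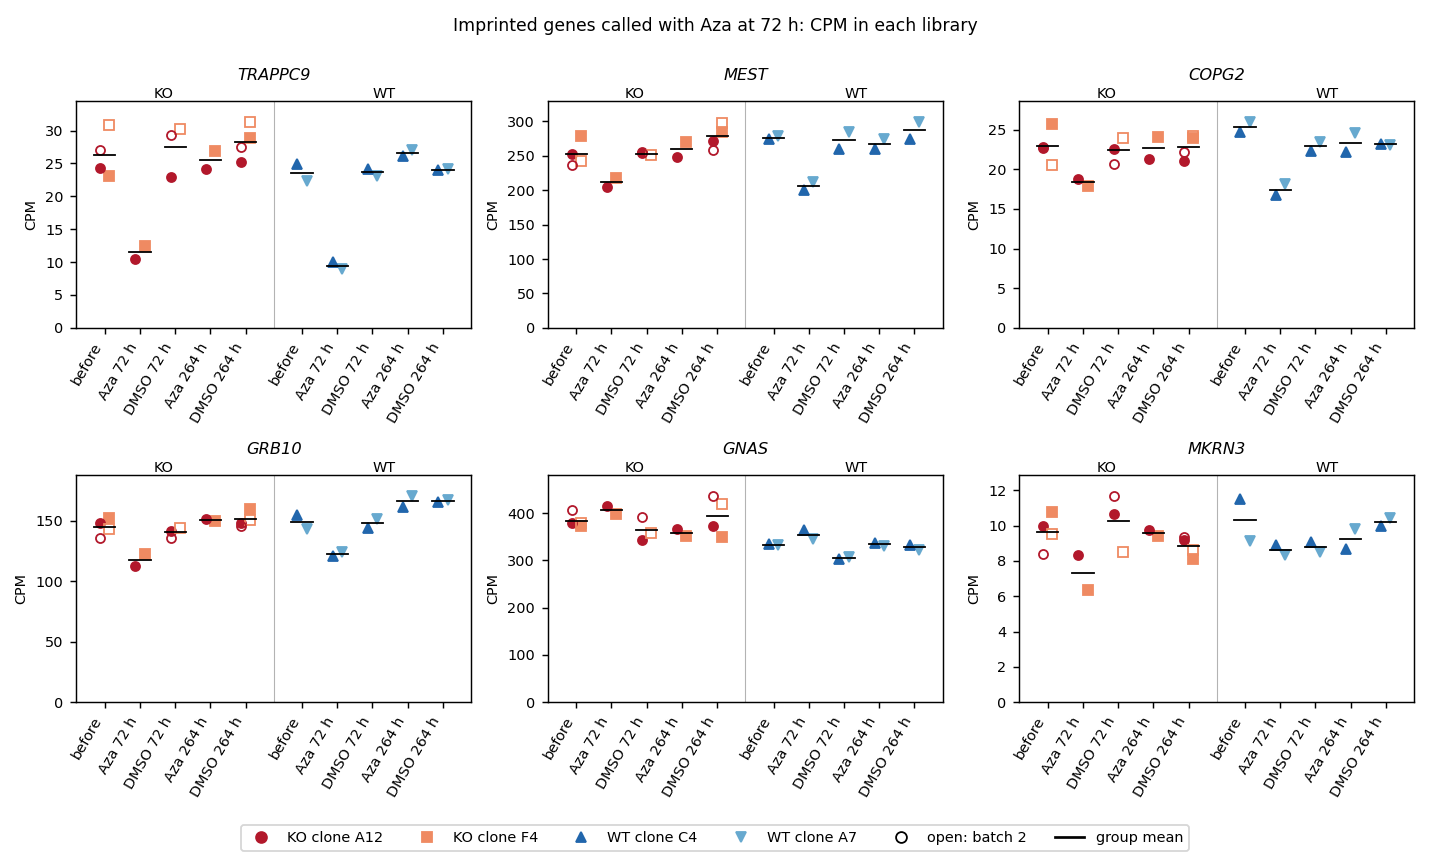
CPM in each library (points, coloured by clone, open for batch 2) and group mean (line) of the 6 imprinted genes called with Aza at 72 h, in KO and WT, before treatment and with Aza or DMSO at 72 and 264 h. TRAPPC9 stood at 8.94 to 12.5 CPM in the 4 Aza libraries of 72 h, below every other library.

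Without the 2 WT libraries taken before treatment, which go against their clone labels, 10 of 26 members were called among KO cells after 72 h (7 lower and 3 higher, beside 26.1% of 18304 genes) and 6 in WT (1 higher and 5 lower; 24.0% of genes). The 6 calls in KO and the 5 in WT were all made again. In KO, SLC22A18 joined as higher (log2 0.80, SE 0.30, edgeR adjusted p = 0.0476), and KCNQ1OT1 (-0.48, SE 0.15, adjusted p = 0.0177) and NAA60 (-0.61, SE 0.23, adjusted p = 0.0472) joined as lower. SLC22A18 stood at 1.04 CPM in A12 and 1.54 CPM in F4 with Aza, against 0.721 and 1.20 CPM in A12 and 1.68 CPM in F4 with DMSO. The groups overlapped, and F4, whose DMSO library is of the other batch, was lower with Aza. KCNQ1OT1 stood at 6.36 CPM in A12 and 6.31 CPM in F4 with Aza, against 7.52 and 7.65 CPM in A12 and 7.64 CPM in F4 with DMSO. NAA60 stood at 1.97 CPM in A12 and 1.62 CPM in F4 with Aza, against 2.54 and 2.87 CPM in A12 and 2.92 CPM in F4 with DMSO. Neither KCNQ1OT1 nor NAA60 overlapped between these KO groups. IGF2 was called too, on 3 counts in A12 and 4 in F4 with Aza against 0 in all 3 KO DMSO libraries; with so few counts its fold is not given. In WT, GNAS-AS1 joined as lower (-1.32, SE 0.39, adjusted p = 0.0111).

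GNAS-AS1 was called with Aza in WT when those 2 libraries were left out, and not with them. It stood at 0.966 CPM in A12 and 0.867 CPM in F4 with Aza at 72 h, against 1.65 and 2.23 CPM in A12 and 2.22 CPM in F4 with DMSO. WT cells had 0.872 CPM in C4 and 0.112 CPM in A7 with Aza, against 1.92 CPM in C4 and 0.451 CPM in A7 with DMSO. Each Aza library lay below the DMSO libraries of its own clone. With all 25 libraries the log2 change was -0.70 (SE 1.04, edgeR adjusted p = 0.705) in KO and -1.28 (SE 1.20, edgeR adjusted p = 0.541) in WT. Without the WT libraries of before treatment it was -0.71 (SE 0.31, adjusted p = 0.0920) in KO. At 264 h the values were 1.98 CPM in A12 and 1.17 CPM in F4 with Aza, against 2.92 and 3.61 CPM in A12 and 1.77 and 3.22 CPM in F4 with DMSO, and neither fit called them.

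At 264 h no member was called in KO or in WT, where 0.0979% (0.0816% higher and 0.0163% lower) and 0.500% (0.364% higher and 0.136% lower) of all genes were. At an unadjusted p under 0.05 there were 2 members in KO and 0 in WT, and DESeq2 called 0 in each. The 2 were MEG3 (log2 0.23, 95% interval 0.01 to 0.45) and MEST (log2 -0.11, interval -0.23 to 0.00), both with an edgeR adjusted p above 0.7: 0.747 for MEG3 and 0.766 for MEST. Without the 2 WT libraries of before treatment, 0 members were called again, against 0.481% of genes in KO and 1.94% in WT. Unadjusted p was then under 0.05 for 3 members in KO (KCNQ1OT1 at 0.31, MEST at -0.11 and GNAS-AS1 at -0.55) and 2 in WT (GNAS-AS1 at -0.80 and L3MBTL1 at 0.36). TRAPPC9 stood at 24.2 CPM in A12 and 26.8 CPM in F4 with Aza, against 25.3 and 27.4 CPM in A12 and 28.9 and 31.3 CPM in F4 with DMSO. In WT it stood at 26.1 CPM in C4 and 27.1 CPM in A7 with Aza, against 23.9 CPM in C4 and 24.2 CPM in A7 with DMSO. The log2 change of TRAPPC9 at 264 h was -0.05 (95% interval -0.23 to 0.13) in KO and 0.15 (-0.04 to 0.33) in WT. The median half-width of the unadjusted 95% interval over members was 0.32 in KO and 0.35 in WT on the log2 scale. Changes of this size could go undetected in the members with wider intervals. Because calls rest on the adjusted p, changes beyond an unadjusted interval could go uncalled too, as for MEG3 in KO.

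The difference between the times was itself tested, over both genotypes. The Aza effect at 264 h minus that at 72 h was called for 7 of 26 members (26.9%, 5 positive and 2 negative), against 20.6% of all genes (9.52% positive and 11.0% negative). Without the 2 WT libraries of before treatment these 7 were called again, against 26.1% of genes, so the members' share was near the background. With all 25 libraries the difference was 1.29 for TRAPPC9 (SE 0.09, edgeR adjusted p = 1.73e-10), 0.35 for COPG2 (SE 0.09, edgeR adjusted p = 0.00657), 0.27 for GRB10 (SE 0.06, edgeR adjusted p = 0.000955) and 0.24 for MEST (SE 0.05, edgeR adjusted p = 0.00228). For GNAS it was -0.26 (SE 0.05, edgeR adjusted p = 0.000389). IGF2R (0.21, edgeR adjusted p = 0.0483) and BLCAP (-0.28, edgeR adjusted p = 0.0411) were called in the difference and at neither time alone. The BLCAP change was 0.17 in KO and 0.17 in WT at 72 h, and -0.11 in KO and -0.10 in WT at 264 h.

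**Figure D3:**
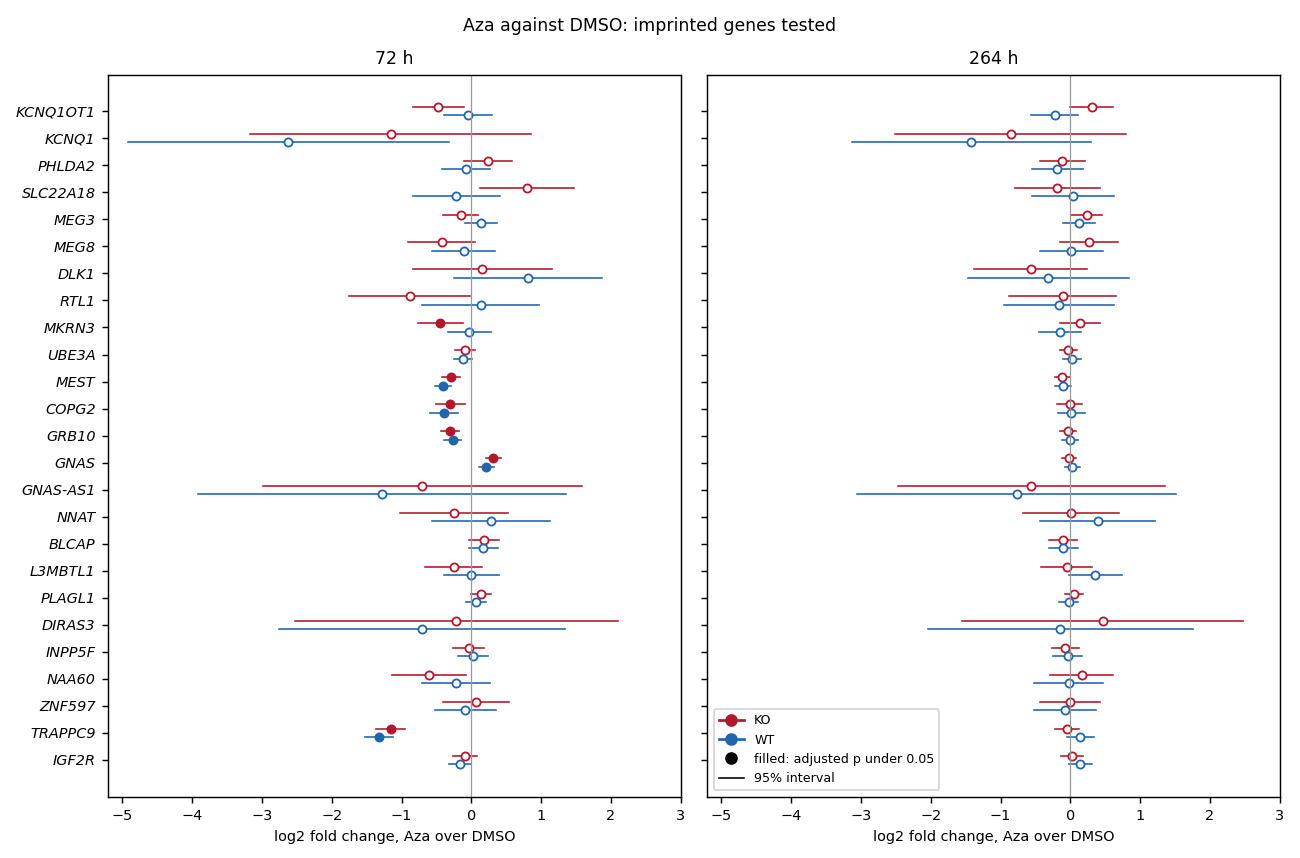
Log2 fold change of Aza over DMSO with 95% intervals for 25 of the 26 tested imprinted genes at 72 h and 264 h, in KO and WT; IGF2, at or under the 3-count floor in most KO libraries, is left out. Filled points pass an adjusted p of 0.05: 6 genes in KO and 5 in WT at 72 h, 0 at 264 h.

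The Aza effect did not differ detectably between genotypes for any member. The genotype difference was called for 0 of 26 members at each time, as for 0.00% of all genes by edgeR. At an unadjusted p under 0.05 there was 1 member at each time, SLC22A18 at 72 h (difference 1.01, 95% interval 0.10 to 1.92) and KCNQ1OT1 at 264 h (0.53, interval 0.07 to 0.99), and DESeq2 called 0 members. Without the 2 WT libraries of before treatment 0 of 26 members and 0.00% of genes were called again. Unadjusted p was then under 0.05 for 4 members at 72 h and 1 at 264 h. At 72 h these were SLC22A18 (1.02, interval 0.19 to 1.86), KCNQ1OT1 (-0.43, -0.85 to -0.01), MKRN3 (-0.41, -0.81 to -0.01) and IGF2, which has too few counts for a fold, and at 264 h KCNQ1OT1 (0.52, 0.15 to 0.90). For the members called at 72 h, KO minus WT was 0.17 for TRAPPC9 (-0.12 to 0.46), 0.11 for MEST (-0.06 to 0.28), 0.09 for COPG2 (-0.19 to 0.38), -0.04 for GRB10 (-0.21 to 0.14) and 0.10 for GNAS (-0.05 to 0.26).

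KO against WT was compared in 4 conditions of batch 1, with 2 clones per genotype, and 0 of 24 members were called in any of them. Before treatment 0.0543% of all genes were called (0.0423% higher and 0.0121% lower), and in DMSO cells of 264 h 0.208% (0.135% higher and 0.0735% lower). With Aza the shares were 0.190% after 72 h (0.110% higher and 0.0796% lower) and 0.0488% after 264 h (0.0366% higher and 0.0122% lower). At an unadjusted p under 0.05 there was 1 member in each condition, and DESeq2 called 0 in each. That member was GNAS before treatment (log2 0.18, 95% interval 0.01 to 0.36) and in Aza at 72 h (0.20, 0.02 to 0.37). In DMSO and in Aza at 264 h it was DLK1. At 264 h DLK1 passed the filter on low counts through KO, where it is high, so its fold in these fits is not given. With DMSO it had 42 counts in F4 and 16 in A12, against 8 in C4 and 7 in A7. With Aza it had 21 in F4 and 11 in A12, against 7 in C4 and 5 in A7.

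DLK1 had 0.598 CPM in A12 and 1.20 CPM in F4 with DMSO at 264 h in batch 1, against 0.296 CPM in C4 and 0.255 CPM in A7. With Aza at 264 h it had 0.419 CPM in A12 and 0.767 CPM in F4, against 0.271 CPM in C4 and 0.174 CPM in A7. Both KO clones lay above both WT clones at 264 h, and F4 lay above A12. At the other times compared, A12 lay below both WT libraries and F4 above them. Before treatment A12 had 0.220 CPM and F4 0.927, against 0.297 and 0.353 CPM in the libraries labelled C4 and A7. With Aza at 72 h A12 had 0.179 CPM and F4 0.867, against 0.357 CPM in C4 and 0.484 CPM in A7. With no filter on low counts, DLK1 and DIRAS3 were called in DMSO at 264 h, where that fit called 3.52% of 31649 genes. The filtered fit called 0.208% of genes and neither of these members. The fold of DLK1 is again not given, and the log2 change of DIRAS3 was -1.19 (edgeR adjusted p = 0.0284). DIRAS3 had 0.897 CPM in A12 and 1.15 CPM in F4, against 3.80 CPM in C4 and 0.949 CPM in A7, so C4 alone lay high and the groups overlapped.

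Within the KO genotype, clone A12 differed from clone F4 in 8 of 24 members (33.3%, 4 higher and 4 lower), against 36.6% of all 17900 genes (18.8% higher and 17.8% lower). PHLDA2 and IGF2R were higher in A12 and were called in each of the 19 alternatives. The 8 calls take in DLK1 and MEG8 of 14q32, both lower in A12. Lower distal 14q in A12 was known beforehand, so these calls are a description and not a test. PHLDA2 had a lowest, median and highest value of 8.54, 10.3 and 17.2 CPM in the 8 A12 libraries, against 5.10, 6.91 and 12.7 CPM in the 7 F4 libraries. Within batch 1, A12 had 8.54 to 11.2 CPM and F4 5.10 to 6.91, and within batch 2, A12 had 14.3 to 17.2 CPM and F4 7.73 to 12.7, so the clones did not overlap within a batch. The log2 difference was 0.72 (SE 0.07, edgeR adjusted p = 2.87e-09). The 115 other genes tested within 5 Mb of PHLDA2 had a median of -0.10, with 16 higher and 35 lower. IGF2R had a lowest, median and highest value of 80.0, 86.7 and 105 CPM in A12, against 65.3, 76.6 and 84.9 CPM in F4. Its log2 difference was 0.24 (SE 0.04, edgeR adjusted p = 5.21e-05), beside a median of 0.01 for its 37 neighbours.

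At 14q32 most of the genes around the imprinted cluster were lower in A12. Lower distal 14q in A12 was known from earlier results of these data when the genes were chosen. The counts and calls at 14q32 between these clones therefore describe it and are not a test of it. Of the 107 other genes tested within 5 Mb of MEG3, 63 were lower in A12, 6 were higher and the median log2 difference was -0.48. DLK1 had a lowest, median and highest value of 0.179, 0.335 and 0.598 CPM in A12, against 0.602, 0.927 and 1.20 CPM in F4, so the clones did not overlap. Its log2 difference was -1.27 (SE 0.22, 95% interval -1.72 to -0.83), below the lower quartile of its neighbours (-0.73). DLK1 had 5 to 21 counts per A12 library and 19 to 42 per F4 library. MEG8 was at -0.25 (SE 0.10) and RTL1 at -0.37 (95% interval -0.77 to 0.04, not called). MEG3, the most abundant of the locus, overlapped between the clones: it had a lowest, median and highest value of 184, 251 and 298 CPM in A12, against 163, 256 and 335 CPM in F4. Its log2 difference of -0.03 had a 95% interval of -0.18 to 0.13, where the upper quartile of its neighbours was -0.15. Whether DLK1 or MEG3 differs from its neighbours was not tested.

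The other 4 calls between the KO clones were GNAS-AS1 (log2 0.35, edgeR adjusted p = 0.0256), GNAS (0.09, edgeR adjusted p = 0.0237), SLC22A18 (-0.35, edgeR adjusted p = 0.0414) and TRAPPC9 (-0.13, edgeR adjusted p = 0.0301), each lost in 8 to 14 of 19 alternatives. MEG8 was lost in 12, and in batch 2 alone it was at 0.00. For the settings that follow the share of all genes called is not given, so their counts of members have no background. Within batch 2 alone 3 members were called, and without the F4 DMSO library of batch 1 at 264 h also 3. The count was 4 without either batch 1 library of before treatment, and 5 without either 72 h Aza library, without the A12 DMSO library of batch 1 at 264 h or without either batch 2 library of the mixed label.

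**Figure D4:**
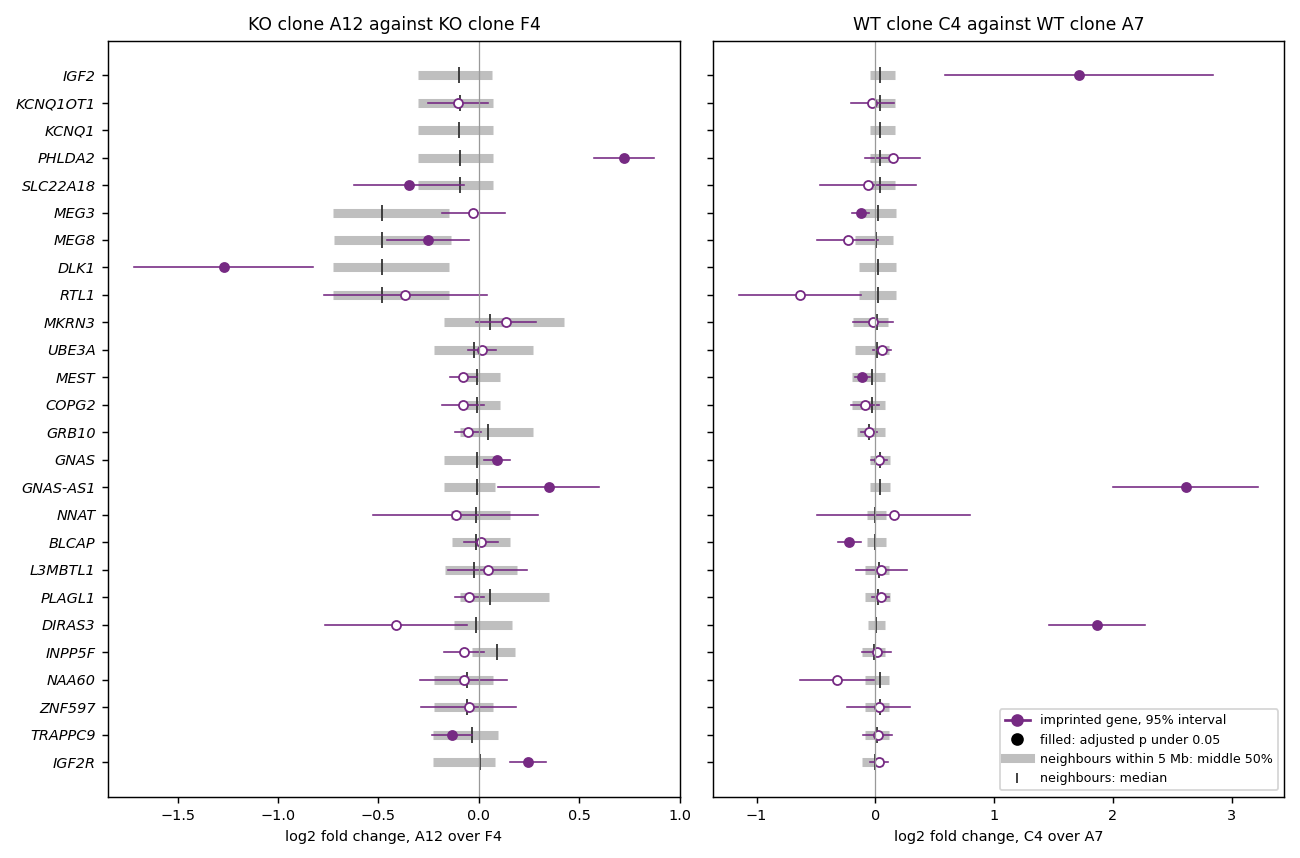
Log2 difference (x axis) of each imprinted gene tested (points with 95% intervals, filled when called) between KO clones A12 and F4 and between WT clones C4 and A7, with the median and quartiles of the other genes tested within 5 Mb in grey; a row with no point was not tested there. At 14q32 the neighbours' median in A12 against F4 was -0.48, with DLK1 at -1.27 and MEG3 at -0.03.

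Within the WT genotype, compared over the 8 libraries of 72 and 264 h, clone C4 differed from clone A7 in 6 of 24 members (25.0%, 3 higher and 3 lower), against 18.7% of all 17018 genes (9.87% higher and 8.87% lower). GNAS-AS1 and DIRAS3 were higher and BLCAP, MEG3 and MEST were lower in C4. The remaining call, IGF2, is given by its counts only, since it passed the filter on low counts through C4. GNAS-AS1 had 0.872 and 1.82 CPM with Aza and 1.92 and 2.51 CPM with DMSO in C4, against 0.112 and 0.0698 CPM with Aza and 0.451 and 0.547 CPM with DMSO in A7. The clones did not overlap, and 2 to 15 counts stood behind the A7 values. The log2 difference was 2.61 (SE 0.30, edgeR adjusted p = 5.77e-08). The 71 other genes tested within 5 Mb had a median of 0.03, and GNAS was at 0.03 (95% interval -0.04 to 0.09), not called.

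DIRAS3, which restrains growth and is read from the paternal copy, had 1.90 and 3.79 CPM with Aza and 3.03 and 3.80 CPM with DMSO in C4, against 0.671 and 0.628 CPM with Aza and 1.16 and 0.949 CPM with DMSO in A7. Its log2 difference was 1.86 (SE 0.20, edgeR adjusted p = 1.09e-08), beside a median of 0.00 for its 45 neighbours. IGF2 had 18 and 11 counts with Aza and 13 and 4 with DMSO in C4, against 3 and 5 with Aza and 0 and 6 with DMSO in A7, so the clones overlapped. BLCAP was lower by less (-0.22, SE 0.05, edgeR adjusted p = 0.000922), as were MEG3 (-0.12, edgeR adjusted p = 0.0105) and MEST (-0.11, edgeR adjusted p = 0.0133). The calls of MEG3 and MEST were lost without either DMSO library of 72 h, when 3 members were called. MEST was lost as well without the C4 Aza library of 264 h or either DMSO library of 264 h.

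Before treatment the order was the other way round. GNAS-AS1 stood at 0.297 CPM in the library labelled C4 and 2.72 CPM in the library labelled A7, and DIRAS3 at 1.58 and 7.72 CPM. IGF2 had 2 counts in the library labelled C4 and 5 in that labelled A7. With all 10 WT libraries as labelled, 0 members were called, with log2 1.42 for GNAS-AS1 (edgeR adjusted p = 0.728) and 0.99 for DIRAS3 (edgeR adjusted p = 0.740). Whether those labels were exchanged was not tested. In the KO clones GNAS-AS1 ran from 0.867 to 3.61 CPM, above every later A7 library.

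**Figure D5:**
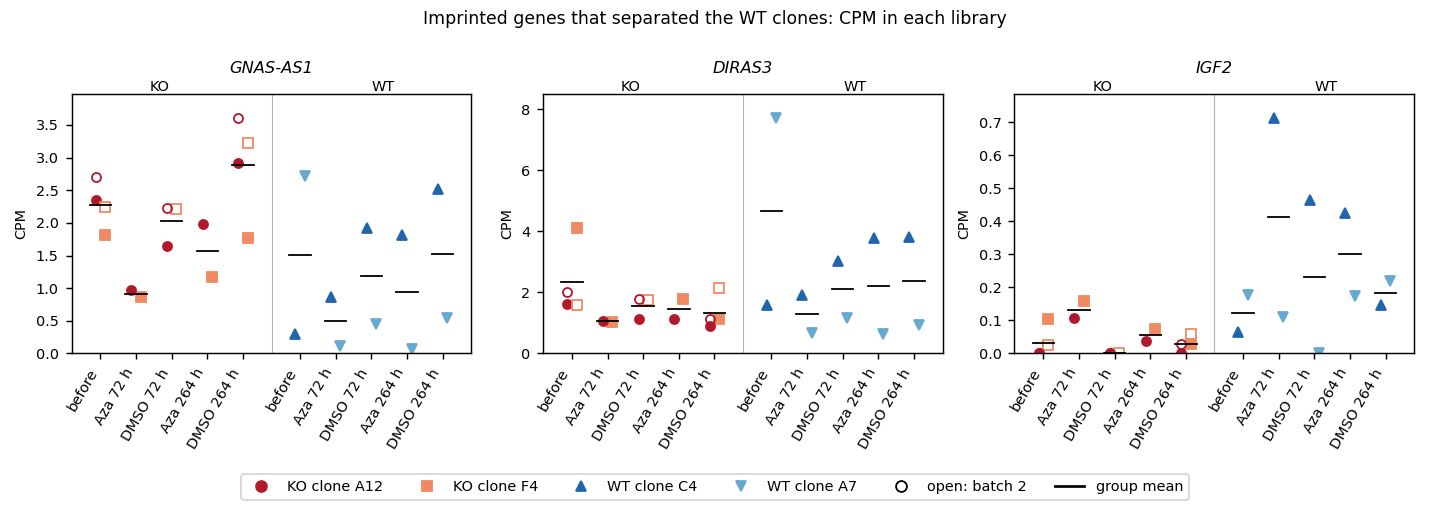
CPM in each library (points, coloured by clone, open for batch 2) and group mean (line) of GNAS-AS1, DIRAS3 and IGF2 in KO and WT by time and treatment. After treatment the C4 libraries lay above the A7 libraries in GNAS-AS1 and DIRAS3, and before treatment the library labelled A7 lay above that labelled C4.

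Genes that set or keep imprints were listed alongside. Of 20 such genes 19 were matched by symbol, UHRF1 was not, and 15 were tested. With 72 h of Aza, KO cells had 2 called higher and 7 lower and WT cells had 2 higher and 3 lower, beside the 20.1% and 18.3% of all genes given above; the median log2 change was -0.21 in KO and -0.08 in WT. The de novo methyltransferase gene DNMT3B averaged 111 ± 21.7 CPM in KO with Aza and 84.3 ± 7.79 CPM with DMSO (SD, n = 2 and 3), a log2 change of 0.44 (edgeR adjusted p = 0.000137). In WT it averaged 108 ± 0.695 CPM with Aza and 73.8 ± 3.05 CPM with DMSO (SD, n = 2 each), a log2 change of 0.55 (edgeR adjusted p = 4.56e-06). TRIM28, the corepressor that ZFP57 recruits, was higher in KO (0.26, edgeR adjusted p = 0.00253) and WT (0.23, edgeR adjusted p = 0.00529). The chromatin remodeller gene ATRX was lower in KO (-0.53, edgeR adjusted p = 8.28e-06) and WT (-0.46, edgeR adjusted p = 2.41e-05), as were TET1 (-0.60 in KO and -0.36 in WT; edgeR adjusted p = 0.00179 and 0.0401) and SMCHD1 (-0.28 and -0.24; edgeR adjusted p = 0.00651 and 0.0130). CTCF (-0.23), DNMT1 (-0.21), TET2 (-0.36) and TET3 (-0.23) were called lower in KO and not in WT, and the genotype difference was called for 0 of the 15. The Aza results of this list come only from the fit that includes the 2 WT libraries of before treatment. Its calls without them are not given. ZFP57 itself had a mean of 0.0116 CPM, below the floor, and its relative ZNF445 had 40.6 CPM. At 264 h 0 of the 15 were called in either genotype, and 0 had an unadjusted p under 0.05.

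A second list held 22 further imprinted genes, of which 18 were matched by symbol and 10 were tested. Its Aza results too come only from the fit that includes the 2 WT libraries of before treatment. In KO at 72 h NAP1L5, a paternally read nucleosome assembly gene, was called higher (log2 0.57, edgeR adjusted p = 0.00531) and the tumour suppressor gene RB1 lower (-0.32, edgeR adjusted p = 0.0123), and in WT RB1 was lower (-0.42, edgeR adjusted p = 0.00079). These were 2 of 10 in KO and 1 of 10 in WT, beside 20.1% and 18.3% of all genes. At 264 h 0 were called in either genotype, beside 0.0979% of all genes in KO and 0.500% in WT. Between the KO clones 4 of 10 were called, beside 36.6% of all genes. Between the WT clones 4 of 10 were called, beside 18.7% of all genes. Between the KO clones NAP1L5 (0.96, edgeR adjusted p = 6.44e-13), NLRP2 (0.65, edgeR adjusted p = 6.91e-05) and WT1 (0.37, edgeR adjusted p = 2.41e-08) were higher in A12, and OSBPL5 (-0.73, edgeR adjusted p = 5.25e-12) was lower. Between the WT clones CDKN1C (0.76, edgeR adjusted p = 6.63e-06), the cyclin kinase inhibitor of 11p15, FAM50B (0.71, edgeR adjusted p = 0.00301) and OSBPL5 (0.37, edgeR adjusted p = 0.0054) were higher in C4, and NLRP2 (-0.65, edgeR adjusted p = 0.000146) was lower.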

How the data were processed

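RNA sequencing counts of 26 libraries of TF-1 clones were used, 25 of them after the 1 that the submitters mark as failing quality control was left out. The deposited values are raw counts per gene: per the file headers, the authors ran featureCounts 1.6.2 on paired reads with the exons of GENCODE release 19, with no strand setting and with reads over several genes unassigned by default. STAR 2.6.1d, cutadapt, FastQC and DESeq2, with hg19 (GRCh37), are named in the submitters' processing notes. Gene coordinates are hg19; RefSeq promoter windows are GRCh38.p14, and no coordinate was converted. Total counts were 24992192 to 40187322 per library (median 27477937); floors cover counting error only.

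From these counts, CPM with TMM library sizes, filterByExpr and robust quasi-likelihood tests were computed in edgeR 4.0.16 (R 4.3.3), with Benjamini-Hochberg adjustment over all genes tested and a call at 0.05. Standard errors are the log2 change over the root of the F statistic. Aza comparisons came from 1 model of 25 libraries with terms for 11 groups, batch and clone. The clone term pairs libraries because a clone name in the labels marks the same cells. KO against WT used the 4 batch 1 libraries of each condition, the KO clones 15 libraries and the WT clones the 8 libraries of 72 and 264 h. In all, 13 comparisons were made, and the fit was tested on simulated data. Alternatives were DESeq2 1.42.0, no filter on low counts, no clone term, single batches, the failed library included, the WT pre-treatment libraries left out or added, and each library left out.

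The genes and lists were chosen with earlier results of these data known. Every member is accounted for; values per library are given for members called with Aza, for members called between clones or genotypes at a log2 difference of at least 1, and, as lowest, median and highest, for the leading member of each locus. DLK1 and DIRAS3 in KO against WT, MEG3, PHLDA2 and IGF2R between clones and GNAS-AS1 with Aza were described further after their values were seen.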

Additional observations from a re-analysis of the deposited data

Results flagged for a closer look

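For 7 members the Aza effect differed between 264 h and 72 h by a test of that difference over both genotypes (edgeR's quasi-likelihood test, Benjamini-Hochberg adjusted). TRAPPC9 differed by 1.29 on the log2 scale (adjusted p = 1.73e-10), being lower with Aza at 72 h in both genotypes and with a 95% interval that holds 0 at 264 h. COPG2 differed by 0.347 (adjusted p = 0.00657), GRB10 by 0.267 (adjusted p = 0.000955) and MEST by 0.240 (adjusted p = 0.00228), with the same order of times. GNAS differed by -0.263 (adjusted p = 0.000389), being higher with Aza at 72 h. IGF2R differed by 0.210 (adjusted p = 0.0483) and BLCAP by -0.276 (adjusted p = 0.0411). IGF2R and BLCAP were lost in 19 and 18 of 25 alternatives, MEST, COPG2 and TRAPPC9 in 0, and GRB10 and GNAS in 1 each, the one with the failed library included. In the 4 KO DMSO libraries of 264 h, the only group of a size that allows the check, no member had a library standing apart.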

How the results depend on the processing

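Counts of members called moved by over 1.5 times under these settings. With the failed library included, 2 members (TRAPPC9 and MEST) were called with Aza at 72 h in KO, 3 (these and COPG2) in WT and 3 in the difference between the times. With the WT pre-treatment libraries left out, 10 were called in KO at 72 h, beside 26.1% of all genes. With no filter, 2 were called in KO against WT in DMSO at 264 h, beside 3.52% of all genes. In batch 2 alone, 3 were called between A12 and F4, where MEG8 turned to 0.00301 (adjusted p = 0.992). With all 10 WT libraries as labelled, 0 were called between C4 and A7. The cause was not tested. Leaving out 1 library at a time gave 4 to 7 calls with Aza at 72 h in KO, 3 to 5 in WT, 5 to 8 in the difference between the times, 3 to 8 between the KO clones, 3 to 5 between the WT clones, and 0 in every other comparison. Without the clone term, that is without the replicate block, the counts were 4 in KO and 5 in WT at 72 h, 0 and 0 at 264 h, 0 and 0 for the genotype difference and 5 for the difference between the times; no paired analysis was possible for KO against WT, whose clones share no number. For the other settings the share of all genes called is not given, so these counts cannot be set against a background. MEST and TRAPPC9 with Aza at 72 h were called under every alternative run. IGF2 and KCNQ1, with at most 18 and 15 counts in any library, are limited by depth.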

Other observations

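Some members set the harvest before treatment apart from the later ones. MEG3 ran from 162.9 to 280.0 CPM (median 238) in the 19 libraries of 72 and 264 h, and from 266 to 335 CPM (median 308) in the 6 libraries of before treatment. Within batch 1 the 15 later libraries ran from 185 to 280.0 CPM and the 4 of before treatment from 298 to 335, with no overlap. KCNQ1OT1 ran from 6.31 to 10.5 CPM in the 15 later libraries of batch 1 and from 10.1 to 15.0 CPM in the 4 of before treatment, which overlap. These values were noticed in the data and no test was run on them.

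The batches differed in some members of the KO clones. UBE3A ran from 78.5 to 90.0 CPM in the 6 KO libraries of batch 2 and from 97.2 to 110 CPM in the 9 KO libraries of batch 1 that were kept, with no overlap. PHLDA2 ran from 7.73 to 17.2 CPM in batch 2 and from 5.10 to 11.2 CPM in batch 1. Batch 2 holds no Aza and no WT library.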
